A study of Mus musculus with 12 samples.

Results

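Regulators of G protein signalling (RGS) carry an RGS domain that speeds GTP hydrolysis on G protein alpha subunits and so shortens the signal of a G protein coupled receptor. Most act on the Gi/o and Gq families, and they are grouped by sequence into the R4, R7, R12 and RZ subfamilies. In hippocampus several of them are abundant in neurons, where they limit signalling of muscarinic, metabotropic glutamate and other transmitter receptors, and pilocarpine, which was used here to provoke seizures, is itself an agonist of muscarinic receptors. Expression of 10 RGS genes was described: Rgs2, Rgs3, Rgs4, Rgs8 and Rgs16 of the R4 subfamily, Rgs7 of R7, Rgs10 and Rgs14 of R12, and Rgs17 and Rgs20 of RZ. They were found by gene symbol in the platform annotation, and where a gene had several probe sets the one with the highest mean level was taken. For 9 of the 10 genes a probe set was found, among 23410 tested probe sets and 19938 genes. No probe set carried the name Rgs10 in the annotation used here, so Rgs10 was not analysed.

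Hippocampal RNA of 12 adult C57/Bl6 mice (7 to 10 weeks) was hybridised to Affymetrix gene arrays, 1 per animal, in 4 groups of 3. The first group were Srf mutants (both Srf alleles floxed) that received 335 or 350 mg/kg pilocarpine and had grade 4 seizures without entering status epilepticus (SE), and the second were Srf mutant controls given Ringer solution in place of pilocarpine. The third group were heterozygous littermates (1 floxed Srf allele) with 40 min of SE after the same doses, and the fourth were heterozygous controls given Ringer solution. By the study's methods, mice were killed after 40 min of SE or were given the anticonvulsant diazepam at that time. Which of these held for the third group was not settled here. All 4 groups carried a tamoxifen-inducible CreERT2 under the Camk2a promoter and had been given tamoxifen, so that recombination was limited to glutamatergic forebrain neurons and the heterozygous mice carried 1 recombined allele there. Injected mice had methyl scopolamine first, to limit effects outside the brain. The labels name the heterozygous mice control or WT and the injected mutants as having a seizure, and the genotypes and seizure grades above follow the study's methods. When the mutants without SE were killed is not given in the sources used here, and mutants with SE were not analysed here.

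Levels are on a log2 scale after robust multiarray averaging, so that a difference of 1 is a 2-fold change, and the array medians lay between 6.78 and 6.86. Srf, the deleted transcription factor, had levels of 8.90, 8.90 and 8.83 in mutants with pilocarpine, against 8.80, 8.94 and 8.96 in mutant controls. Its levels were 10.16, 10.20 and 10.27 in heterozygous mice with SE, against 9.59, 9.53 and 9.60 in heterozygous controls. All 6 mutant arrays were thus below all 6 heterozygous ones, and mutant minus heterozygous controls gave -0.67 (SE of the estimate 0.052, limma adjusted p = 0.000263). The excitatory neuron markers Slc17a7, Camk2a, Neurod6 and Prox1, the last a marker of dentate granule cells, were at mean levels of 13.38, 13.95, 11.43 and 10.51 over the 12 arrays, and 0 of the 4 were called in any comparison. Xist, a transcript of females, was above 9 in 1 of 3 mutants with pilocarpine, 2 of 3 mutant controls, 0 of 3 heterozygous mice with SE and 1 of 3 heterozygous controls, so the sexes were not balanced. A change was called at a limma adjusted p under 0.05 over all 23410 probe sets. The p values set a difference of group means against the spread between mice, estimated over all 4 groups. The 3 arrays per group limit the precision.

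Heterozygous SE mice had higher Rgs2, Rgs4 and Rgs16 than heterozygous controls, whereas the other 6 measured RGS genes were not called. Thus 3 of 9 members were higher and 0 of 9 lower, where 5.08% of all probe sets were called higher and 6.93% lower. At the stricter limit of an adjusted p under 0.001 and a change of at least 2-fold, 2 of 9 members (Rgs2 and Rgs4) were higher, and 0.636% of all probe sets were. The median log2 fold change was 0.01 over the 9 members and -0.03 over all probe sets. In Srf mutants given pilocarpine 1 of 9 members, Rgs2, was higher and 0 of 9 lower than in mutant controls, where 0.871% of all probe sets were called higher and 0.965% lower. At the stricter limit 0 of 9 members were higher, and 0.0726% of all probe sets were. The median was -0.03 over the 9 members and -0.0036 over all probe sets. Because the mutants had no SE, genotype and seizure severity cannot be told apart in any difference between the mutant and the heterozygous response. In whole hippocampus fewer cells of a type and less RNA per cell cannot be told apart either.

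**Figure D1:**
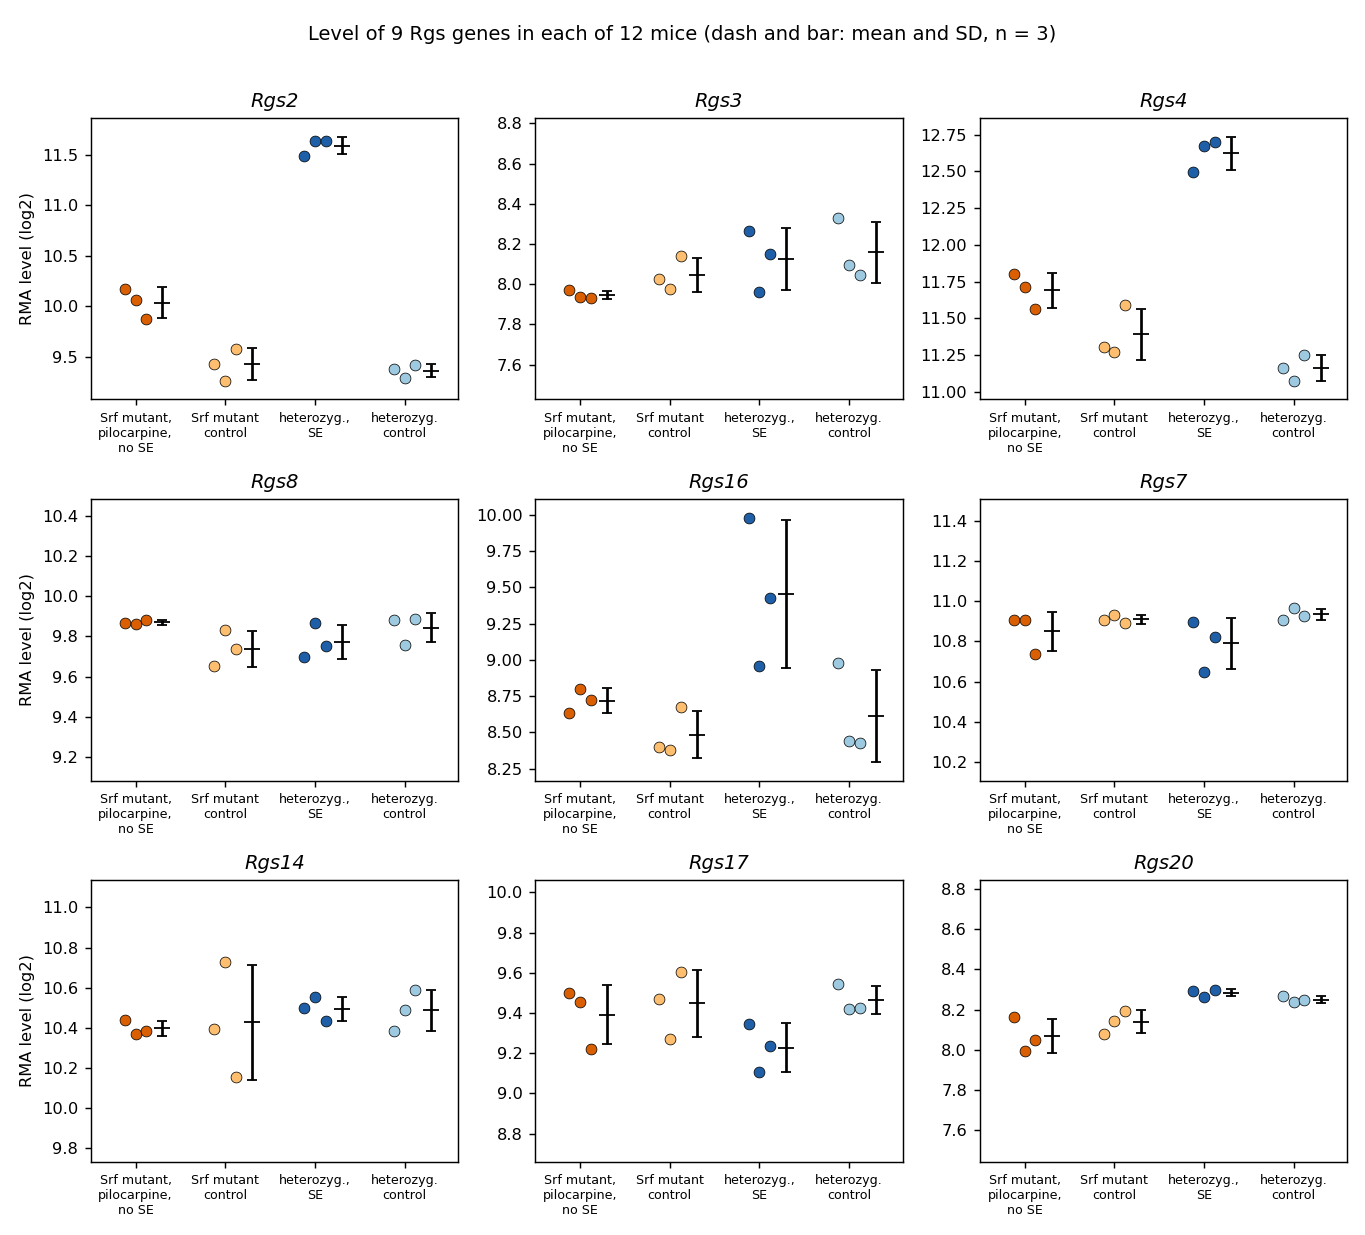
Level (log2, robust multiarray average) of each of the 9 measured Rgs genes on each array, with 1 point per mouse and the mean and SD of each group of 3 beside the points; axes differ between genes and do not start at 0. Rgs2 and Rgs4 in heterozygous SE mice lie above all other mice, Rgs16 in these mice spreads between 8.96 and 9.98, and none of the other 6 genes was called in any comparison.

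The stretches just before the transcription start of the 3 genes that rose in SE are given for their sequence content, since SRF binds the CArG box (CC, then A or T bases, then GG) and the activity-regulated factor CREB binds the cyclic AMP response element (CRE, TGACGTCA) or its core (TGACG). Both strands were searched in the 250 bases before the start in RefSeq's GRCm38.p6 annotation, and the core also lies within the full CRE. Capitals mark the cores as read on the gene's strand, where CGTCA is a core on the other strand. The windows are chr1:144004150-144004399 for Rgs2 and chr1:169747643-169747892 for Rgs4, both on the minus strand, and chr1:153740103-153740352 for Rgs16 on the plus strand.
Rgs2: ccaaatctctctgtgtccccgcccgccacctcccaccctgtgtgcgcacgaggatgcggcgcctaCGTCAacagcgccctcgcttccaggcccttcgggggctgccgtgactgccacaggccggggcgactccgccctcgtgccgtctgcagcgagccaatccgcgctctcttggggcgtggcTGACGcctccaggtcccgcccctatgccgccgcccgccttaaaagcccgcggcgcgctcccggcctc
Rgs4: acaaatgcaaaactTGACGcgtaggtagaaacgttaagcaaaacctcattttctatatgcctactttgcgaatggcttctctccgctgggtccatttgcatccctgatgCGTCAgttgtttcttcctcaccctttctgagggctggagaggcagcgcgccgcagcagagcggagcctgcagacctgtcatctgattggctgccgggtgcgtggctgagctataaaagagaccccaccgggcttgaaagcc
Rgs16: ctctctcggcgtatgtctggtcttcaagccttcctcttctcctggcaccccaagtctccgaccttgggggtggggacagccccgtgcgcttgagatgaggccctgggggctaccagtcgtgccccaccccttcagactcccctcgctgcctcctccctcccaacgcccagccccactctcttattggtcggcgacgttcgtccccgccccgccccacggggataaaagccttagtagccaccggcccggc
The Rgs2 window held 2 cores, which begin 185 and 67 bases before the start, and the Rgs4 window held 2, which begin 236 and 141 bases before it. The Rgs16 window held 0. Among the 8 of 10 RGS genes in the promoter table (11 windows; Rgs14 and Rgs20 were not in it), 1 of 3 windows of Rgs8 held 1 core, and Rgs3, Rgs7, Rgs10 and Rgs17 held 0. A CArG box or a full CRE was in 0 of the 11 windows. Of all 32851 promoter windows of the same length, 17.8% held a core, 3.9% held 2 or more, 1.55% held a full CRE and 1.47% a CArG box. These matches describe letters in a short window and say nothing about binding.

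Rgs2 had the largest change of the family. Its product acts mainly on Gq, the G protein of the M1, M3 and M5 muscarinic receptors, and the gene is known to be switched on quickly by neuronal activity. Its level was 10.17, 10.06 and 9.87 in mutants with pilocarpine, against 9.43, 9.26 and 9.58 in mutant controls. In heterozygous mice it was 11.49, 11.64 and 11.64 with SE, against 9.38, 9.29 and 9.42 in controls. The highest levels were thus those of the 3 heterozygous SE mice, followed by the 3 injected mutants, and neither group overlapped any other, while the 2 control groups overlapped each other. The rise was 4.69-fold in SE (log2 fold change 2.23, SE of the estimate 0.088, limma adjusted p = 4.24e-09), which ranked 35 of 23410 probe sets by rise, falls not counted. It was 1.53-fold in injected mutants (log2 fold change 0.61, SE of the estimate 0.088, limma adjusted p = 0.00412), which ranked 73 by rise. The mutant response was smaller by a log2 difference of -1.62 (95% interval -1.89 to -1.35, limma adjusted p = 8.46e-06). Without pilocarpine the genotypes differed by 0.06 (95% interval -0.13 to 0.25, limma adjusted p = 0.893).

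Rgs4 followed with a smaller rise. It is one of the most studied neuronal RGS genes, and its product acts on Gi/o and Gq and is short-lived. The level of Rgs4 was 11.80, 11.71 and 11.57 in mutants with pilocarpine, against 11.31, 11.27 and 11.59 in mutant controls. In heterozygous mice it was 12.50, 12.67 and 12.70 with SE, against 11.17, 11.08 and 11.25 in controls. The heterozygous SE mice stood above all other mice, whereas 1 mutant control (replicate 3) lay within the range of the injected mutants. In SE the rise was 2.75-fold (log2 fold change 1.46, SE of the estimate 0.091, limma adjusted p = 3.67e-07), rank 83 by rise. In mutants the log2 fold change was 0.30 (95% interval 0.10 to 0.50, limma adjusted p = 0.123) and was not called. Without mutant control replicate 3 it was 0.40 with an adjusted p of 0.0355, so this call hung on 1 array. The responses differed by -1.16 (95% interval -1.44 to -0.88, limma adjusted p = 0.000232). All 3 mutant controls lay above the 3 heterozygous controls in Rgs4, by a log2 fold change of 0.23 (95% interval 0.03 to 0.42), but this did not pass the test (limma adjusted p = 0.524).

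Rgs16 had the widest spread between mice with SE, with an SD of 0.51 (n = 3) that was the largest of the 9 members. Its product accelerates Gi/o and Gq signalling shut-off, as do other small R4 proteins, and the gene is known as inducible in many tissues. The level of Rgs16 was 8.63, 8.80 and 8.73 in mutants with pilocarpine, against 8.40, 8.38 and 8.67 in mutant controls. With SE it was 9.98, 8.96 and 9.43 in heterozygous mice, against 8.98, 8.44 and 8.42 in heterozygous controls. The 2 heterozygous groups overlapped, because SE replicate 2 lay just below control replicate 1, and the 2 mutant groups overlapped through mutant control replicate 3. In SE the rise was 1.79-fold (log2 fold change 0.84, SE of the estimate 0.21, limma adjusted p = 0.0194). This call was lost in 5 of 22 alternatives. The log2 fold change was 0.58 without SE replicate 1 (limma adjusted p = 0.0548) and 0.86 without SE replicate 3 (adjusted p = 0.0552). Leaving out heterozygous control replicate 2 or 3 gave 0.76 and 0.75 (limma adjusted p = 0.0784 and 0.0833), and a fit on these 2 groups alone gave an adjusted p of 0.0696. In mutants the log2 fold change was 0.24 (95% interval -0.22 to 0.69, limma adjusted p = 0.667), and the difference between the responses was -0.61 (95% interval -1.25 to 0.04, limma adjusted p = 0.35).

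The remaining R4 genes, Rgs3 and Rgs8, were not called. Rgs3, whose longer products also carry other domains, had a log2 fold change of -0.03 in SE (limma adjusted p = 0.866) and -0.10 in injected mutants (limma adjusted p = 0.642). A second, dimmer Rgs3 probe set gave -0.11 and -0.14, also not called. Rgs8, whose product is known to speed the gating of G protein gated potassium (GIRK) channels, had -0.07 in SE (limma adjusted p = 0.523) and 0.13 in mutants (limma adjusted p = 0.322). The single R7 member was Rgs7, whose product is stable only in a complex with the G protein beta subunit Gnb5. It had -0.14 in SE (limma adjusted p = 0.189) and -0.06 in mutants (limma adjusted p = 0.731). Of R12, Rgs14 is known for its high level in CA2 pyramidal neurons and for binding both G proteins and small GTPases. Rgs14 had 0.01 in SE (limma adjusted p = 0.98) and -0.03 in mutants (limma adjusted p = 0.944), and 0 of the 5 measured CA2 markers (of 6 listed) were called in any comparison. Of RZ, whose members act on Gz as well as Gi/o, Rgs17 had -0.23 in SE (limma adjusted p = 0.141) and -0.06 in mutants (limma adjusted p = 0.849). Rgs20 had 0.03 in SE (limma adjusted p = 0.751) and -0.07 in mutants (limma adjusted p = 0.552).

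For the 6 members not called in SE, the 95% intervals ran from -0.44 to 0.24, so changes as large as those of Rgs2, Rgs4 or Rgs16 lay outside them. For the 8 not called in mutants they ran from -0.28 to 0.69. At an unadjusted p under 0.05, 5 of 9 members passed in SE, where 23.8% of all probe sets did, and 3 of 9 in mutants, where 14.8% did. Groups did not overlap for 4 of 9 members in SE, with Rgs7 and Rgs17 on the lower side, while 30.4% of all probe sets did not overlap in that comparison. In mutants 3 of 9 members did not overlap (Rgs2 and Rgs8 higher, Rgs3 lower), against 18.4% of all probe sets. With 3 mice against 3 an exact two-sided permutation test cannot go below p = 0.1, which is what groups without overlap give.

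**Figure D2:**
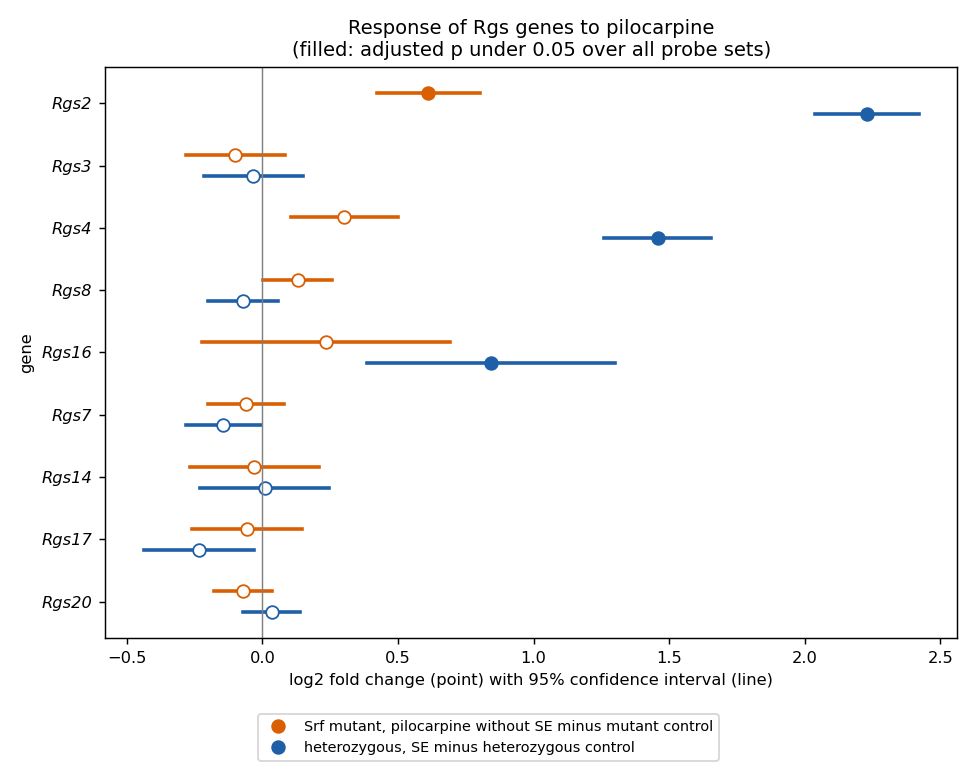
Log2 fold change of each measured Rgs gene with its 95% confidence interval (lines), for Srf mutants with pilocarpine minus mutant controls (orange) and for heterozygous SE mice minus heterozygous controls (blue), n = 3 per group; filled points passed an adjusted p under 0.05. Only Rgs2 has filled points in both, at 0.61 and 2.23, and its intervals do not overlap.

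Without pilocarpine no measured RGS gene was called between the genotypes. Between mutant controls and heterozygous controls 0 of 9 members were called, where 0.0384% of all probe sets were higher and 0.0812% lower. The 95% intervals of the 9 members lay between -0.59 and 0.42, and 2 of 9 passed an unadjusted p under 0.05, as did 8.73% of all probe sets. Both were also the members whose groups did not overlap (13.6% of all probe sets), namely Rgs4, given above, and Rgs20. Rgs20 averaged 8.14 ± 0.058 in mutant controls and 8.25 ± 0.016 in heterozygous controls (SD, n = 3 each), a log2 fold change of -0.11 (limma adjusted p = 0.558). The difference between the mutant and the heterozygous response was called for 2 of 9 members, Rgs2 and Rgs4, both with the smaller response in mutants. In that comparison 2.12% of all probe sets were called on this side and 1.47% on the other. The intervals of the other 7 members reached from -1.25 to 0.47, the widest being that of Rgs16. This comparison uses all 4 groups and shares its arrays with those above.

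Of the 9 measured members, 6 lie on mouse chromosome 1, where most of the R4 genes stand side by side. In the order of the chromosome, Rgs2, Rgs13, Rgs1, Rgs21 and Rgs18 follow each other with 0 other protein-coding genes between them, then Rgs8 and Rgs16 form a pair, and further on Rgs5 and Rgs4 another. Rgs20 and Rgs7 lie before and after these groups. In SE the log2 fold change was 2.23 for Rgs2, but 0.10 for the adjacent Rgs13, 0.06 for Rgs1, -0.0009 for Rgs21 and -0.02 for Rgs18, and none of these 4 was called. It was 0.84 for Rgs16 and -0.07 for Rgs8, and 1.46 for Rgs4 and -0.05 for Rgs5. Each pair or group thus held 1 gene that rose beside genes that were not called. Rgs1, Rgs13, Rgs18 and Rgs21, which are known mainly from immune and blood cells or taste tissue, had mean levels between 4.39 and 5.41 on these arrays, below the array medians.

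**Figure D3:**
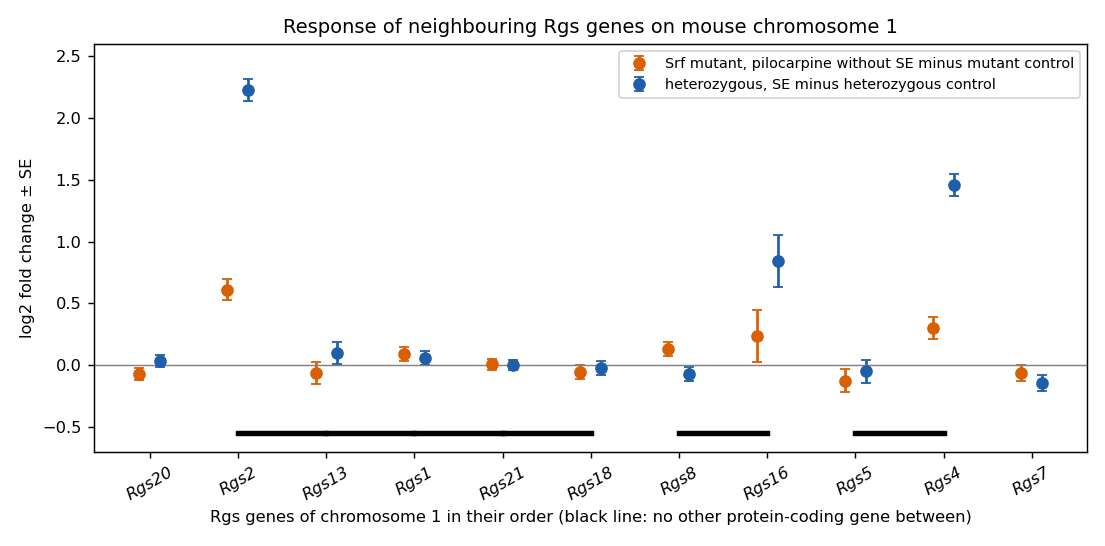
Log2 fold change ± SE of the estimate of all Rgs genes of mouse chromosome 1 in their order along it (not to distance), for Srf mutants with pilocarpine minus mutant controls (orange) and heterozygous SE mice minus heterozygous controls (blue); black lines join genes with no other protein-coding gene between them. Rgs2, Rgs16 and Rgs4 stand at 2.23, 0.84 and 1.46 in SE, and their direct neighbours lie between -0.07 and 0.10.

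The genes whose levels were most like those of the members changed at least 2-fold were found by the root mean square difference over the 12 arrays, after each gene was centred on its mean. Closest to Rgs2 were Fosl2 (0.11), a member of the AP-1 transcription factor family, Egr1 (0.14), a zinc finger immediate early gene, and Pvr (0.17), a cell adhesion receptor of the immunoglobulin family. In SE these rose by 2.26, 2.24 and 2.00 and in injected mutants by 0.66, 0.69 and 0.52 on the log2 scale, all called. Closest to Rgs4 were Usp36 (0.13), a deubiquitinase of the nucleolus, Fbxo33 (0.14), an F-box protein, and Plk2 (0.14), a polo-like kinase induced by activity. Their log2 fold changes were 1.32, 1.54 and 1.28 in SE and 0.41, 0.29 and 0.28 in mutants, all called, where Rgs4 itself had 1.46 and 0.30. Rgs2 and Rgs4 were less alike, with a difference of 0.36, and Rgs4 was only number 52 in the order of likeness to Rgs2. The likeness rests on the same 12 mice and mainly on the 3 with SE, and is a description.

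**Figure D4:**
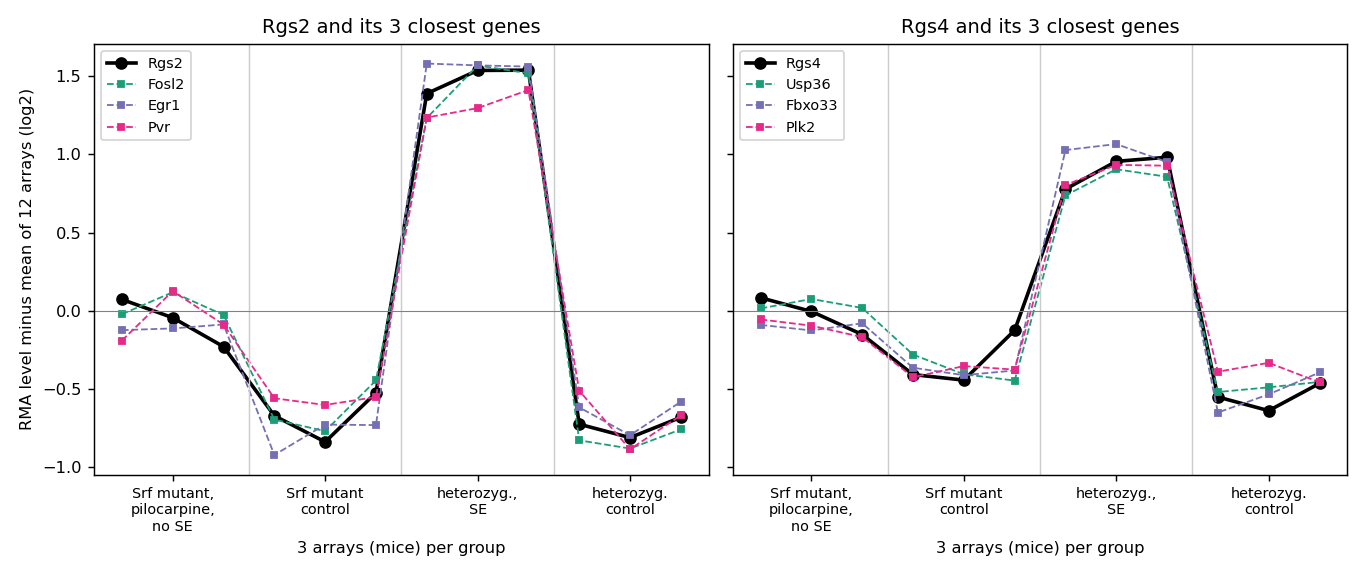
Level minus the gene's mean over the 12 arrays (log2) for Rgs2 (left) and Rgs4 (right), each with its 3 closest genes, where each point is 1 mouse and mice of a group have no order. All genes are highest in the 3 heterozygous SE mice, and the means of the injected mutants lie between these and both control groups.

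The calls among other genes of the pathway are given by list. Of all probe sets, 5.08% were called higher and 6.93% lower in SE, and 0.871% and 0.965% in injected mutants. Of 11 further RGS genes, 0 were higher and 1 was lower in SE, with a median log2 fold change of -0.0009. This was Rgs19, a regulator of Gi/o and Gz that also goes by the name GAIP, at -0.25 (limma adjusted p = 0.0188), a call lost in 4 of 22 alternatives. It averaged 9.13 ± 0.076 in heterozygous SE mice and 9.39 ± 0.075 in heterozygous controls (SD, n = 3 each). In injected mutants 0 were higher and 1 lower, Rgs11, an R7 member that pairs with Gnb5, at -0.58 (limma adjusted p = 0.0459), a call lost in 14 of 22 alternatives. It averaged 7.41 ± 0.18 in injected mutants and 7.99 ± 0.28 in mutant controls (SD, n = 3 each). Of 5 RGS partners, among them Gnb5 and the membrane anchors Rgs7bp and Gpr158, 0 were called in any comparison. The same held for all 7 Gi/o and Gz alpha subunits, 4 Gq/11 alpha subunits, 14 beta and gamma subunits, 4 phospholipase C beta genes (effectors of Gq) and 9 adenylyl cyclases (effectors of Gi and Gs). Of 3 measured Gs and G12/13 alpha subunits (4 listed), Gna13, a G12/13 family subunit, was lower in SE at -0.16 (limma adjusted p = 0.0205), a call lost in 6 of 22 alternatives. Gprin3, which binds activated alpha subunits, was the only 1 of 9 further modulators to be called, at -0.23 in SE (limma adjusted p = 0.00808). Among 4 GIRK channel genes Kcnj3 was lower in injected mutants at -0.18 (limma adjusted p = 0.0368), and among 6 measured receptor kinases and arrestins (7 listed) Grk6 was lower there at -0.21 (limma adjusted p = 0.0319). Those calls were lost in 15 and 13 of 22 alternatives.

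Of the 5 muscarinic receptors, on which pilocarpine acts, 1 was higher and 1 lower in SE, and 1 was higher and 0 lower in injected mutants. Chrm4, the Gi/o coupled M4 receptor, was 9.48, 9.36 and 9.31 in injected mutants, against 9.15, 9.20 and 9.36 in mutant controls. It was 9.97, 10.06 and 10.08 in heterozygous SE mice, against 9.34, 9.34 and 9.23 in heterozygous controls. The SE mice did not overlap any other group, and Chrm4 rose in SE by 0.73 (limma adjusted p = 8.41e-06). In mutants the value was 0.15 (limma adjusted p = 0.305), and the responses differed by -0.59 (limma adjusted p = 0.00279). Chrm1, the Gq coupled M1 receptor, was lower in SE at -0.22 (limma adjusted p = 0.0119), a call lost without heterozygous control replicate 3 (adjusted p = 0.0578). Chrm5, also Gq coupled, was higher in injected mutants at 0.47 (limma adjusted p = 0.0293), a call lost in 8 of 22 alternatives. It had -0.30 in SE (limma adjusted p = 0.0642), and the responses differed by 0.77 (limma adjusted p = 0.00675). Its control groups did not overlap, at 8.16, 7.95 and 8.06 in mutant controls against 8.31, 8.52 and 8.42 in heterozygous controls. This gap of -0.36 was not called (limma adjusted p = 0.351), and the same arrays enter the difference between the responses. Chrm2 and Chrm3 were not called.

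The size of the RGS changes can be set beside that of 6 immediate early genes (Fos, Npas4, Arc, Egr1, Junb and Btg2). All 6 were higher in both comparisons, with a median log2 fold change of 1.42 in injected mutants and 3.61 in SE, and all 6 responded less in mutants (median difference -2.11). In SE, Rgs2 at 2.23 was close to the lowest of the 6, Egr1 at 2.24, and Rgs4 at 1.46 lay below all of them. In injected mutants Rgs2 at 0.61 lay just below the lowest of the 6, Btg2 at 0.65.

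**Figure D5:**
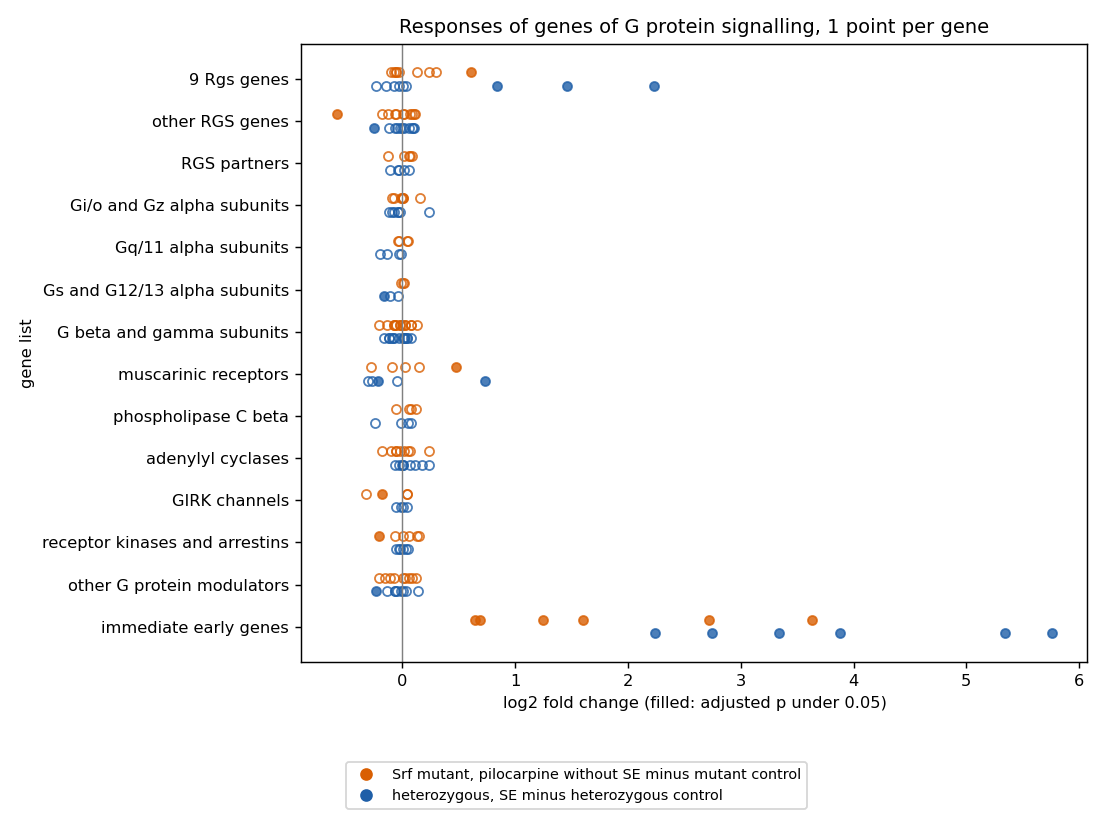
Log2 fold change of each measured gene (1 point each) of the Rgs genes and of 13 lists of G protein signalling and immediate early genes, for Srf mutants with pilocarpine minus mutant controls (orange) and heterozygous SE mice minus heterozygous controls (blue); filled points passed an adjusted p under 0.05. Outside Rgs2, Rgs4, Rgs16, Chrm4 and the immediate early genes no gene is filled at more than 0.6 on either side.

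Calls among markers of other cell types are to be read beside those of all probe sets. In SE 5.08% of all probe sets were called higher and 6.93% lower, and in injected mutants 0.871% and 0.965%. Groups did not overlap for 30.4% of single probe sets in SE and for 18.4% in injected mutants. In SE 1 of 5 interneuron markers was higher (Sst at 0.31), and the others ranged from -0.16 to 0.04 and were not called. The summed level of the 5, of which Sst was the brightest, did not overlap between the heterozygous groups. It was 13.72 to 13.75 in heterozygous SE mice against 13.58 to 13.59 in heterozygous controls. In mutant controls the same sum was 13.67 to 13.75, so the heterozygous controls stood apart from these too. The summed level of 5 endothelial and pericyte markers was lower without overlap, at 10.64 to 10.93 in SE mice against 10.94 to 11.03 in controls, and 1 of the 5 was called (Pdgfrb at -0.48). In SE 2 of 6 microglial markers were lower (Cx3cr1 at -0.19 and P2ry12 at -0.23), with overlapping sums, and 1 of 5 measured markers of adjoining thalamus and striatum was lower (Drd1 at -0.47). In injected mutants 0 markers of the 10 lists were called, but the summed level of 3 oligodendrocyte markers was 12.60 to 13.06, against 13.08 to 13.10 in mutant controls. Their part in the RGS results was not tested.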

How the data were processed

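The authors isolated total hippocampal RNA, labelled it by the whole transcript protocol and read 1 Mouse Gene ST array per animal with Affymetrix Expression Console. They deposited log2 values after robust multiarray averaging (RMA), which corrects background, equalises the distributions of the arrays and summarises probes to probe sets, and which can narrow large fold changes. Of 35556 probe sets, 23410 had a gene in the platform annotation (21789 had 1 gene, 1621 several) and 12146 had none. Symbols of 21698 were found in the GRCm38.p6 gene table, and 0 had changed. The 23410 were fitted with limma 3.58.1 (lmFit, eBayes) in R 4.3.3 with a mean per group, no block and no filter on dim probe sets and Benjamini-Hochberg adjustment over all of them.

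The members and lists were chosen with earlier results of these data known. All members and Srf were named, and of each list counts and up to 3 called genes per comparison. Sst, Cx3cr1, P2ry12, Pdgfrb and Drd1 fall under this rule too. Promoters were searched in RefSeq sequences with Python 3.11.15 and pandas 2.3.3, and plots were drawn with matplotlib 3.10.9. Summed marker levels are the log2 of the sum of linear values. As alternatives the fit was repeated with a robust prior with a trend, with brighter probe sets only, with 2 further normalizations (median centring, quantile again), on the compared groups alone, with array weights, with the mean of a gene's probe sets, over all probe sets, with Xist as a covariate, with animal number as a block, and without each of the 12 arrays. The fit was tested on simulated data. Gnas, Grk2, Ntf3, Adora2a, Hbb-bs and Hba-a1 had no probe set of their own here and were not analysed. Files of other arrays of the study were not used here.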

Additional observations from a re-analysis of the deposited data

Results flagged for a closer look

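Among the RGS members, Srf and the pathway lists, the responses of 6 genes differed between Srf mutants with pilocarpine and heterozygous mice with SE. The measure was the interaction term of the limma fit (mutant response minus heterozygous response, log2, 3 mice per group). The immediate early genes and the genes closest to Rgs2 and Rgs4 were not counted here. All 6 immediate early genes also responded less in mutants, as given above. Rgs2 responded less in mutants by -1.62 (adjusted p = 8.46e-06) and Rgs4 by -1.16 (adjusted p = 0.000232), both from limma, and each was significant in all 21 alternatives run for it. Srf differed by -0.664 (limma adjusted p = 0.000236) and Chrm4 by -0.588 (limma adjusted p = 0.00279). Chrm5 differed in the other direction by 0.771 (limma adjusted p = 0.00675), with control groups that did not overlap either (mutant minus heterozygous controls -0.36, limma adjusted p = 0.351). Kcnj3 differed by -0.221 (limma adjusted p = 0.044), which was lost in 17 of 21 alternatives. Mutants had no SE and heterozygous mice did, so genotype and seizure severity cannot be told apart in any of these genes.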

How the results depend on the processing

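Over 22 alternatives (10 settings and 12 arrays left out in turn) the members gave 783 gene results. Of these, 777 stayed on their side of the threshold, 5 lost significance, 1 gained it and 0 reversed. A reversal was counted only where the main or the alternative result was significant. Results significant in neither could change sign, as did Rgs3 in SE, which ran from -0.10 to 0.05. The 5 were all Rgs16 in SE and the 1 was Rgs4 in mutants, as given with these genes. The count of members higher in mutants with pilocarpine was between 1 and 2 when an array was left out, and the 2 came without mutant control replicate 3. No other count of members moved by over 1.5 times, but without Rgs16 the count in SE is 2 of 9. The cause was not tested. Same animal numbers were not taken as pairs. Between groups compared, deviations of same-numbered mice correlated at -0.31 to 0.15 across probe sets. With 3 mice per group such correlations cannot settle whether any mice were paired. With the animal number as a replicate block, 3 members were higher in SE, 1 was higher in mutants and 2 responded less in mutants, and no call of a member changed. With 3 mice per group, the intervals given for members that were not called show how precise each value is. They are not adjusted over all probe sets, so they do not set the limit of a call. Rgs4 in mutants, for example, was not called though its interval of 0.10 to 0.50 excludes 0.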
